A study of Oryza sativa with 14 samples.

Results

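Leaves of untreated htg3 plants were compared with leaves of untreated wild type (WT) to ask which transcripts differed before any heat, and which of these differences both htg3 lines shared. The comparison takes 7 of the series' 14 RNA-seq libraries by their genotype and treatment labels: 2 libraries of line htg3_cr12 (cr12), 2 of line htg3_cr2 (cr2) and 3 of WT. All plants were rice (Oryza sativa) in the ZH11 background, grown in pots to the 4-leaf stage under normal conditions, and total RNA came from leaf tissue. The other 7 libraries are the same genotypes kept at 42 °C for 0.5 h, and they are read here as a second set of libraries. They entered the same statistical fit, where they shared the filter and the variance estimates with the untreated ones, so the untreated calls are not independent of them. The labels describe the lines as transgenic and give neither the edited sequence nor the locus, so in genes moved by 1 line the edit and any other change of that line cannot be told apart. Whether replicates are separate plants is not stated either, and the p-values then reflect only how these libraries vary, which may be technical.

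HTG3 has been described as a heat shock factor gene on rice chromosome 3. Heat shock factors are transcription factors that bind promoters of chaperone genes and raise their output when proteins begin to unfold, and in unstressed leaves most of this program is near its basal level. JAZ proteins repress jasmonate responses until the hormone triggers their destruction, and a link between HTG3 and JAZ genes has been published. Leaves are also where rice makes its florigens, the mobile proteins that tell the shoot apex to flower, which is why flowering genes can be followed in this tissue.

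The 7 untreated libraries held about 23.0 M to 24.5 M fragments each (4 counts to a fragment). Replicates of a group correlated at 0.990 to 0.994 on log2(CPM + 1), where CPM is the count of a gene scaled to a common library size (edgeR). A chi-square comparison of replicate counts gave 22.2 per degree of freedom for cr12 and 39.2 for cr2, against 11.4 to 15.2 for WT pairs, so the cr2 replicates were the least alike. In cr12 replicate 2 heat-inducible genes were high (FKBP62b at 16.5 CPM against 0.827 CPM in replicate 1), and in cr2 replicate 2 light-harvesting genes were high (LHCA1 at 5196 CPM against 3079 CPM in replicate 1). Leaf markers (6 genes, Rubisco and its activase and antenna proteins) summed to 35933 to 69663 CPM in the htg3 lines and 42436 to 48634 CPM in WT. Of 5 root markers, RCc3 and LSI2 had no count in any untreated library, and the list summed to 31.8 to 42.2 CPM in the htg3 lines and 25.9 to 31.1 CPM in WT. In bulk leaf RNA, fewer cells of a type and less RNA per cell cannot be told apart.

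The targeted gene could not be checked directly, so all listed heat shock factor genes on chromosome 3 were read in each library. HSFA1, the constitutive master factor, had 83.1, 80.9, 78.2 and 79.0 CPM in the htg3 libraries, against 91.2, 86.0 and 84.7 CPM in WT. These groups did not overlap, and the log2 difference of -0.12 ± 0.06 (SE) was not called (edgeR adjusted p = 0.35). HSFA2a, a strongly heat-inducible factor, had 0, 6.69, 1.25 and 0.581 CPM in the htg3 libraries, against 0.287, 0.161 and 0 CPM in WT, with the highest value in cr12 replicate 2. HSFA2d averaged 90.2 ± 44 CPM in the htg3 lines (SD, n = 4) and 81.8 ± 10 CPM in WT (SD, n = 3). For it and the genes that follow, the SD of the htg3 lines takes both lines together and holds any difference between them. HSFA2e averaged 39.8 ± 1.3 CPM in the htg3 lines and 42.1 ± 1.7 CPM in WT. LOC_Os03g12370 averaged 18.9 ± 3.3 CPM in the htg3 lines and 22.2 ± 2.9 CPM in WT. HSFB4d averaged 0.582 ± 0.19 CPM in the htg3 lines and 0.755 ± 0.28 CPM in WT. None of these 6 genes was called in the htg3 lines or in either line by edgeR, and 1 of the 6 (HSFA2a) had an unadjusted p under 0.05 in the pooled comparison. Of all 25 listed heat shock factors edgeR called none, with 4 at an unadjusted p under 0.05 (16.9% of all tested genes were), DESeq2 called 1 lower (3.34% of all genes) and voom none (1.81% of all genes higher and 1.88% lower). Transcript levels do not show whether a coding sequence was edited.

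Of 28823 genes tested, 885 had an adjusted p under 0.05 between the pooled htg3 lines and WT (edgeR quasi-likelihood test, Benjamini-Hochberg), which is 3.07% of all genes tested. Of these, 502 were higher in the htg3 lines (1.74%) and 383 were lower (1.33%). The higher genes were shifted further: 300 of them were at least 2-fold higher, while 86 of the lower genes were at least 2-fold lower. The median log2 difference over all tested genes was -0.01. The higher count was 199 and 284 without WT replicates 1 and 2, 278 without cr12 replicate 2 and 282 without cr2 replicate 2. The lower count was 132, 183 and 164 without WT replicates 1, 2 and 3, 153 without cr12 replicate 2 and 205 without cr2 replicate 2.

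Nearly all called genes leaned the same way in both lines. Of the 885 genes, 876 (3.04% of those tested) had the same sign in cr12 and cr2 and 9 (0.0312%) had opposite signs. The call was made on the mean of both lines, where opposite shifts cancel, so the call itself favours genes with a shared sign. Both lines were also set against the same WT libraries, so a shared sign is in part fixed by the WT values. The count of same-sign genes therefore does not measure how well the lines agree. A stricter reading asks for a call in each line. That gave 176 genes (0.611% of those tested), 109 higher and 67 lower, and 120 of them were at least 2-fold changed. Of the other same-sign genes, 539 were called in cr2 and not in cr12, 88 in cr12 and not in cr2, and 73 in neither line alone. The lines themselves differed: cr12 against WT gave 433 calls (1.5%) and cr2 against WT 1582 (5.49%), and 1094 genes differed between the lines (3.8%), among them 144 of the same-sign genes. The same-sign count was 325, 462 and 511 without WT replicates 1, 2 and 3, 424 without cr12 replicate 2 and 481 without cr2 replicate 2. The count of genes called in each line was 74, 107 and 101 without WT replicates 1, 2 and 3, 82 and 54 without cr12 replicates 1 and 2, and 90 without cr2 replicate 2.

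**Figure D1:**
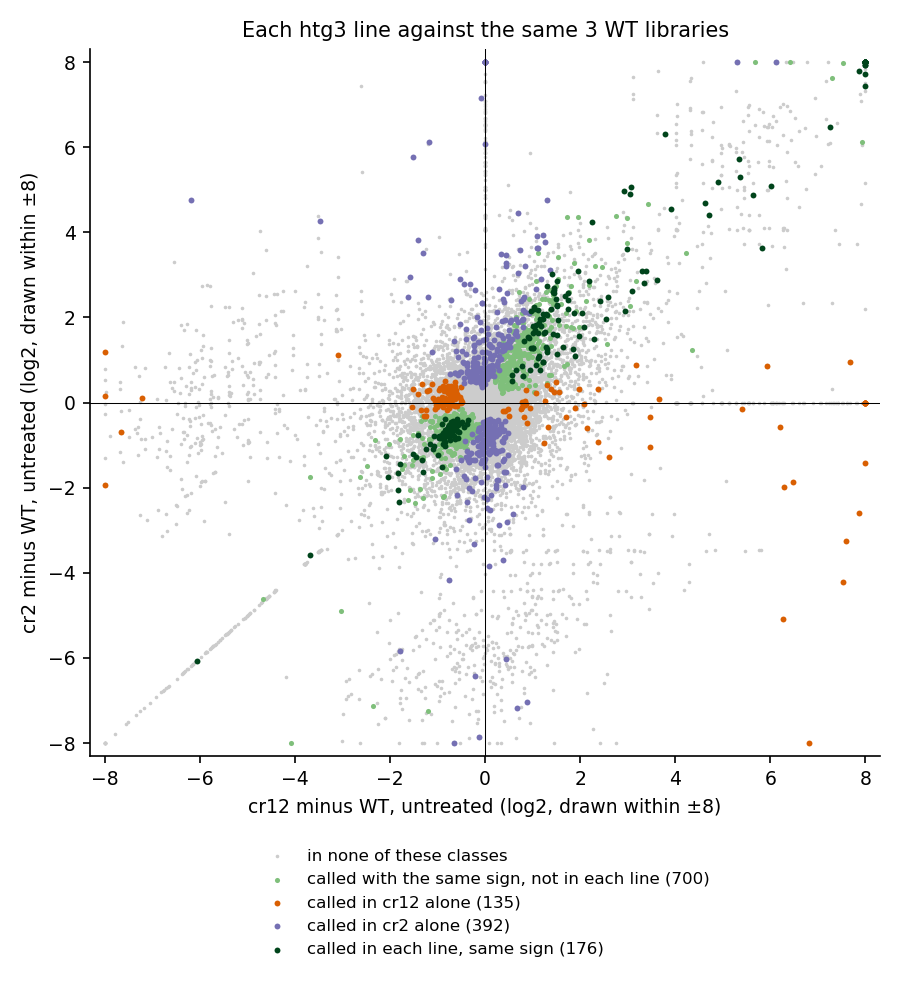
Log2 difference from WT of each tested gene in untreated leaves, cr12 on the horizontal and cr2 on the vertical axis, both against the same 3 WT libraries; values beyond 8 are drawn at 8. The 176 genes called in each line with the same sign lie in the upper right (109) and lower left (67), most of the 135 genes of cr12 alone lie near the horizontal axis and most of the 392 of cr2 alone near the vertical one. Same-sign genes that also belong to 1 line are drawn in that line's colour, and the fitted values of genes at 0 in a group depend on a prior count.

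Genes moved by 1 line were kept apart. A gene was given to 1 line when it was called there, not called in the other line, and the lines differed from each other in the same direction by their own test. By this rule 135 genes belonged to cr12 alone (0.468% of those tested, 54 higher and 81 lower) and 392 to cr2 alone (1.36%, 221 higher and 171 lower). The rule and the same-sign rule can both hold: 18 same-sign genes also belonged to cr12 alone and 108 to cr2 alone, and MADS14, described with the flowering genes, is among the 108. The cr2-alone count was 21 without cr2 replicate 2 and 715 without cr2 replicate 1, 45 and 119 without cr12 replicates 1 and 2, and 229 and 246 without WT replicates 2 and 3. The cr12-alone count was 35 without cr2 replicate 2, 45 and 50 without cr12 replicates 1 and 2, and 52, 74 and 59 without WT replicates 1, 2 and 3.

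**Figure D2:**
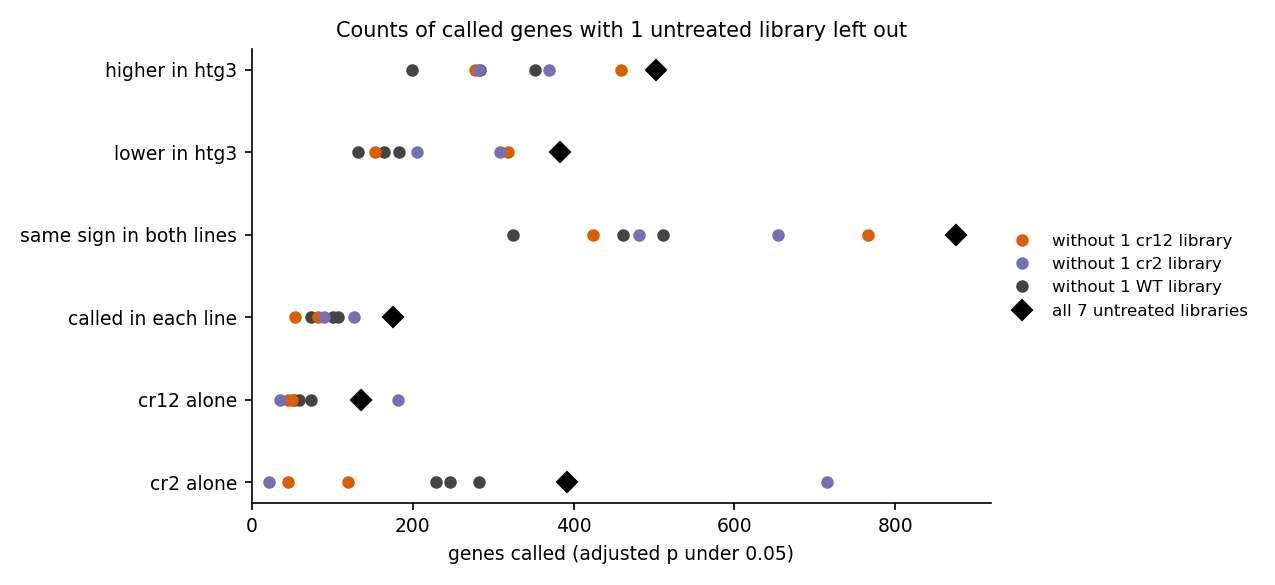
Number of genes called in untreated leaves under each rule (rows) with all 7 libraries (black diamonds) and with 1 library left out (circles, coloured by the genotype of that library). The same-sign count runs from 325 to 766 with 1 library left out against 876 with all, and the cr2-alone count from 21 to 715 against 392.

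Of the genes called in each line, those furthest from WT are given by locus ID, since the files do not pair IDs with names. LOC_Os03g43100 on chromosome 3 had 11.0, 11.9, 11.5 and 10.4 CPM in the htg3 libraries, against no count in any of the 3 WT libraries. Taking 3 fragments over the WT group as the floor, it was at least 280-fold higher (adjusted p = 0.00013). LOC_Os11g17954 on chromosome 11 had 1.72, 1.09, 2.93 and 3.0 CPM in the htg3 libraries, against no count in WT, and was at least 54.7-fold higher (adjusted p = 0.011). Its pooled call was lost by voom (adjusted p = 0.086) and without replicate 2 of both lines (0.057), and its call in cr12 was lost by both and when any 1 WT or cr12 library was left out (adjusted p up to 0.087).

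On the lower side, LOC_Os04g42120 on chromosome 4 had 0.433, 0.394, 0.421 and 0.463 CPM in the htg3 libraries, against 5.74, 5.27 and 4.90 CPM in WT. The groups did not overlap, and the log2 difference was -3.63 ± 0.34 (adjusted p = 0.00022), while its cr12 call was lost without replicate 2 of both lines (adjusted p = 0.057). LOC_Os12g36630 on chromosome 12 had 1.78, 0.886, 1.46 and 0.818 CPM in the htg3 libraries, against 5.12, 4.38 and 4.68 CPM in WT (-1.93 ± 0.28, adjusted p = 0.0042). Its pooled call held with each library left out in turn, while its cr12 call was lost without cr12 replicate 2 or any 1 WT library and in a fit of the 7 untreated libraries, and its cr2 call without cr2 replicate 2.

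Folding enzymes of the endoplasmic reticulum (ER), which fold and disulfide-bond secreted proteins, held the listed genes that edgeR called higher in the pooled comparison. Of 8 listed genes edgeR called 2 higher (1.74% of all tested genes were) and none lower. It called none in cr12 and 2 higher in cr2 (3.45% of all genes). All 8 had a positive difference, and 5 had htg3 libraries that all lay above WT, where 6.77% of all tested genes did so. The list's median log2 difference was 0.33, against -0.01 over all genes. In the heat-treated libraries none of the 8 was called and the list's median was 0.02. PDIL1-1, a protein disulfide isomerase, had 109, 99.8, 108 and 108 CPM in the htg3 libraries, against 86.2, 83.1 and 82.8 CPM in WT. Every htg3 library lay above every WT library, by 0.34 ± 0.07 on the log2 scale (adjusted p = 0.02). CRT, a calreticulin that holds glycoproteins until they fold, had 144, 158, 205 and 209 CPM in the htg3 libraries, against 129, 110 and 131 CPM in WT. It was 0.52 ± 0.09 higher (adjusted p = 0.01), with cr2 (0.75 ± 0.11) above cr12 (0.30 ± 0.11), a line difference that was not called (adjusted p = 0.053).

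The other ER genes were not called by edgeR. DESeq2 called 5 of the 8 higher in the htg3 lines (4.33% of all genes were) and 2 higher in cr12. Voom called 3 higher in the htg3 lines (1.81% of all genes) and 1 higher in cr12. In cr12 DESeq2 called 5.98% of all genes in either direction and voom 2.41%. BiP1, the ER HSP70, had 178, 186, 223 and 181 CPM in the htg3 libraries and 154, 119 and 153 CPM in WT, a difference of 0.43 ± 0.12 (adjusted p = 0.087). PDIL2-1 (0.21 ± 0.07) and PDIL1-4 (0.28 ± 0.16), further disulfide isomerases, also had groups that did not overlap. PDIL2-3 differed by 0.33 ± 0.10 and the lectin chaperone CNX by 0.35 ± 0.19. bZIP50, the transcription factor of the ER stress response, differed by 0.04 ± 0.09. The PDIL1-1 call was lost without any 1 WT replicate, cr12 replicate 1 or cr2 replicate 2 (adjusted p of 0.056 to 0.082), and the CRT call without WT replicate 2 (0.051). Both were lost when the lines were taken as 1 group of 4 (0.15 and 0.09) and without replicate 2 of both lines.

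**Figure D3:**
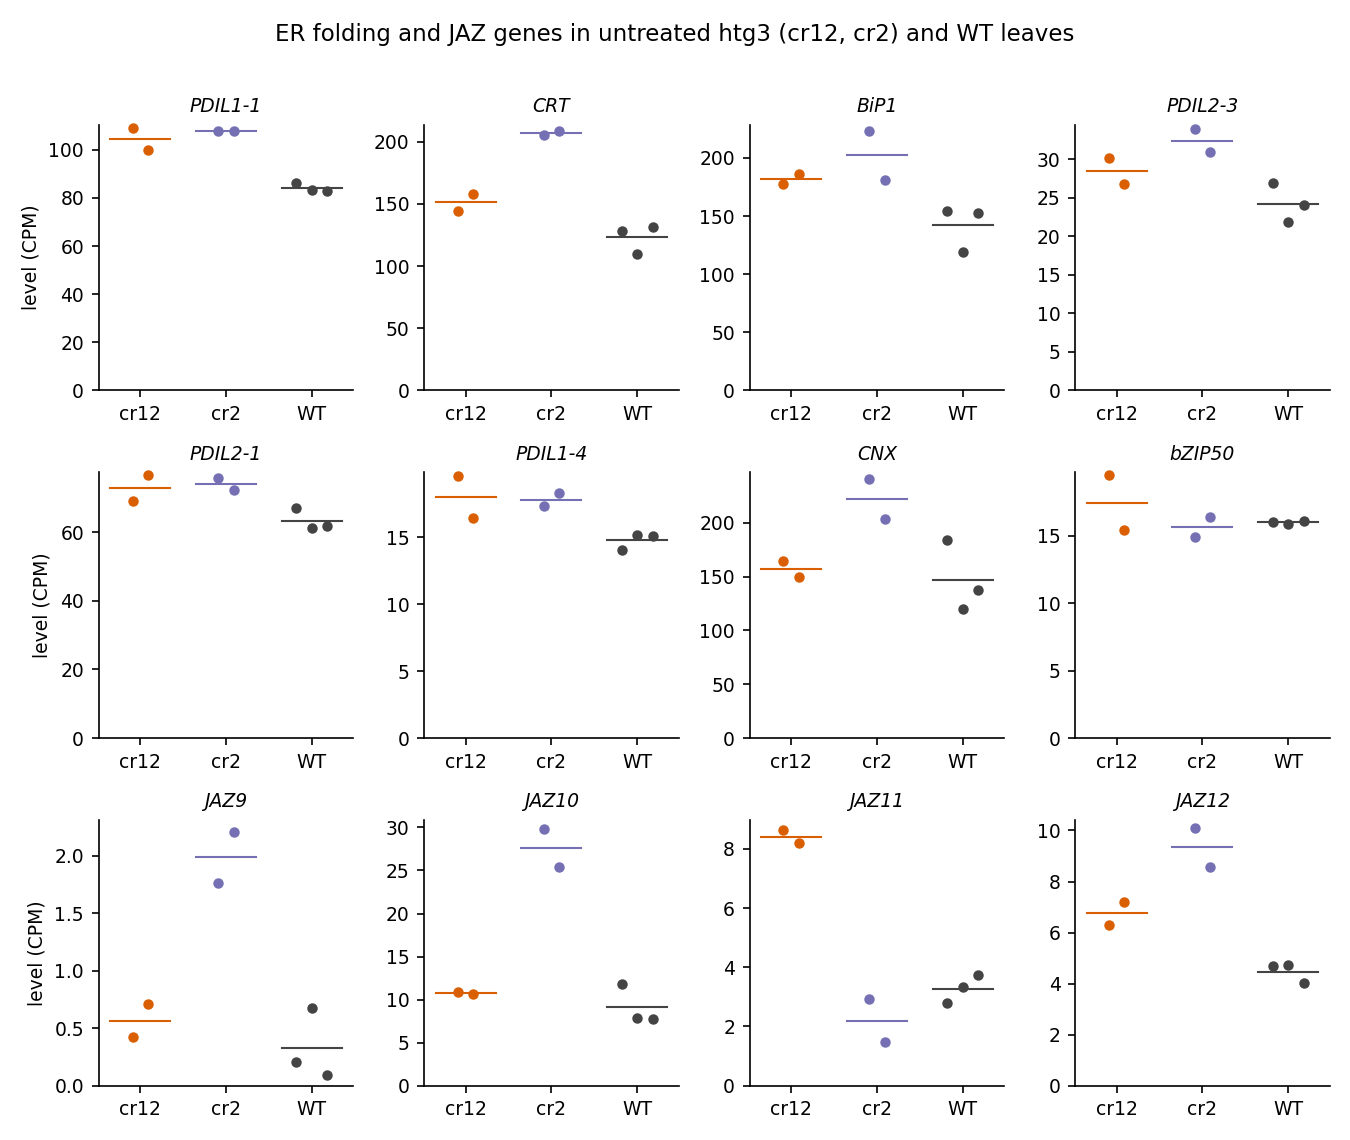
Level (CPM) of 8 ER folding genes and of JAZ9 to JAZ12 in each untreated library of cr12 (2), cr2 (2) and WT (3); points are libraries and bars are group means. PDIL1-1 runs from 99.8 to 109 CPM in the htg3 libraries and from 82.8 to 86.2 CPM in WT, while JAZ10 is high in cr2 alone and JAZ11 in cr12 alone.

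Among flowering genes MADS14 was called lower in the htg3 lines, with the larger shift in cr2. Of 7 listed genes edgeR called 1 lower and none higher in the htg3 lines (1.33% of all tested genes were lower). It called none in cr12 and 2 lower in cr2 (2.04% of all genes). DESeq2 called 2 lower in the htg3 lines (3.34% of all genes were) and none in cr12. Voom called 2 lower in the htg3 lines (1.88% of all genes) and 1 lower in cr12 (2.41% of all genes in either direction). With 3 of the 7 the htg3 libraries all lay below WT, as did 7.2% of all tested genes. The list's median log2 difference was -0.94, at -0.34 in cr12 and -1.73 in cr2.

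MADS14, a MADS-box factor that acts after florigen, had 12.7 and 15.5 CPM in cr12 and 4.81 and 1.49 CPM in cr2, against 26.0, 28.4 and 32.9 CPM in WT. All htg3 libraries lay below all WT libraries, and the pooled difference was -2.13 ± 0.34 (adjusted p = 0.007). In cr2 it was -3.20 ± 0.47 (adjusted p = 0.0033), and in cr12 -1.05 ± 0.42 (adjusted p = 0.25), with the lines 2.16 ± 0.47 apart (adjusted p = 0.031). Taking the lines as 1 group of 4 ended the pooled call (adjusted p = 0.43).

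Hd3a, a florigen, had 1.77 and 4.02 CPM in cr12 and 1.37 and 0.614 CPM in cr2, against 4.32, 4.78 and 6.21 CPM in WT. Its groups did not overlap and it was not called by edgeR (-1.59 ± 0.57, adjusted p = 0.17). MADS15, a close relative of MADS14, had 0.171 and 0.522 CPM in cr12 and 0.0401 and 0 CPM in cr2, against 0.924, 1.19 and 1.52 CPM in WT (adjusted p = 0.09). Hd1, the rice relative of CONSTANS that sets florigen output by day length, was called in cr2 alone, at 0.401 and 0.463 CPM, against 1.42, 0.847 and 1.32 CPM in WT (-1.46 ± 0.37, adjusted p = 0.043), while cr12 had 1.65 and 1.22 CPM. That call was lost when any 1 library other than WT replicate 2 was left out (adjusted p up to 0.21), by voom and in a fit of the 7 untreated libraries. Ehd1, an activator of the florigen genes, and the long-day repressors Ghd7 and DTH8 were not called by edgeR and stood below 2 CPM in every untreated library.

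In the 7 heat-treated libraries 3 of the 7 flowering genes were called lower in the htg3 lines, where 3.74% of all tested genes were. MADS14 had 4.64, 8.58, 0.66 and 0.255 CPM in the heat-treated htg3 libraries, against 14.7, 14.8 and 13.9 CPM in heat-treated WT (-3.06 ± 0.37, adjusted p = 0.0018). All htg3 libraries lay below all WT libraries, and cr2 again lay below cr12. Hd3a (-2.97 ± 0.61, adjusted p = 0.018) and MADS15 (adjusted p = 0.039) were called there too, MADS15 with 0, 0.504, 0 and 0 CPM in the heat-treated htg3 libraries against 1.51, 0.482 and 0.698 CPM in heat-treated WT. In a fit of the 7 heat-treated libraries alone MADS14 was called (adjusted p = 0.0084), while Hd3a (0.07) and MADS15 (0.11) were not. Ghd7 and Ehd1 had no count in heat-treated WT.

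**Figure D4:**
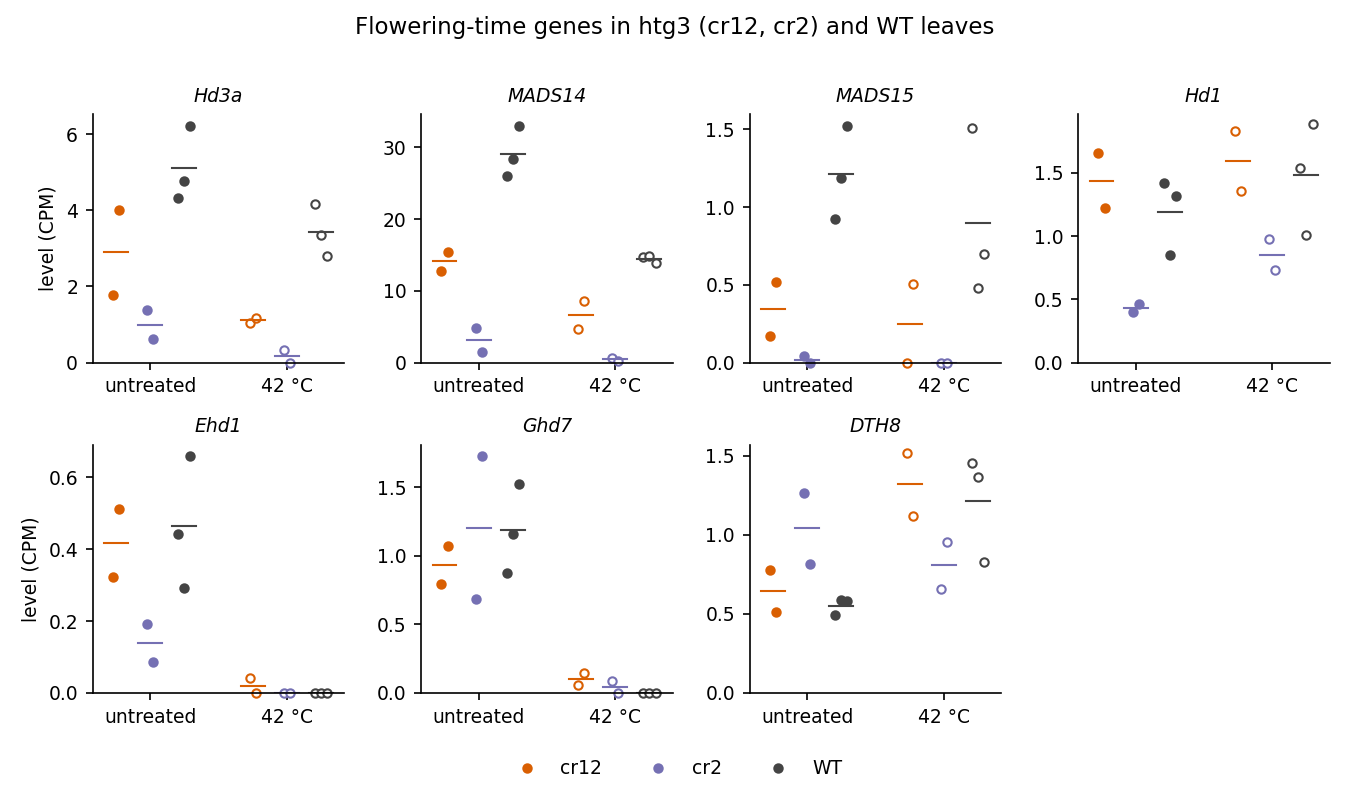
Level (CPM) of the 7 flowering-time genes in each library of cr12, cr2 and WT, untreated (filled points) and at 42 °C for 0.5 h (open points), with bars at group means. MADS14 is below WT in both lines under both conditions, at 1.49 to 15.5 CPM in untreated htg3 libraries and 26.0 to 32.9 CPM in untreated WT.

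JAZ genes were not called by edgeR in the htg3 lines as a whole. Of 15 listed genes 13 were tested, and 4 had an unadjusted p under 0.05 (16.9% of all tested genes had). DESeq2 called 3 higher (4.33% of all genes were) and voom none (1.81% of all genes higher and 1.88% lower). In cr12 DESeq2 called 2 higher (5.98% of all genes in either direction) and edgeR none. The list's median difference was 0.33, and in cr2 edgeR called 2 of the 13 higher (3.45% of all genes were). The published link between HTG3 and JAZ genes may rest on these very libraries, which would leave the counts of this list without independence from them. JAZ9, JAZ10 and JAZ11 are neighbouring copies on chromosome 3 that can share reads, so their single values are uncertain. JAZ9 had 0.423 and 0.709 CPM in cr12 and 1.77 and 2.21 CPM in cr2, against 0.205, 0.676 and 0.0968 CPM in WT, and was called in cr2 (2.61 ± 0.66, adjusted p = 0.04). JAZ10 had 10.9 and 10.6 CPM in cr12 and 29.8 and 25.4 CPM in cr2, against 11.8, 7.83 and 7.75 CPM in WT, and was called in cr2 (1.60 ± 0.33, adjusted p = 0.017).

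JAZ11 ran the other way, with 8.62 and 8.19 CPM in cr12 and 2.93 and 1.46 CPM in cr2, against 2.78, 3.32 and 3.73 CPM in WT. It was called in neither line by edgeR, and the lines differed by 1.93 ± 0.46 (cr12 minus cr2, adjusted p = 0.041). JAZ12 had 6.28, 7.21, 10.1 and 8.56 CPM in the htg3 libraries, against 4.69, 4.71 and 4.02 CPM in WT. Its groups did not overlap, and the difference of 0.83 ± 0.25 was not called by edgeR (adjusted p = 0.11). JAZ6 (0.33 ± 0.18) also had groups that did not overlap. JAZ1, JAZ3, JAZ4, JAZ5, JAZ7, JAZ8 and JAZ13 differed by -0.61 to 0.88 with overlapping groups, and JAZ2 was at 0.201 CPM or less in every untreated library, with no count in WT. The JAZ9 call was lost without WT replicate 1 or 3 or either cr2 replicate, and the JAZ10 call without WT replicate 2 or 3 or either cr2 replicate (adjusted p up to 0.2 and 0.077). The JAZ9 call was also lost by voom and in a fit of the 7 untreated libraries.

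Of all 208 tested genes on the 25 lists, 3 were called in the htg3 lines (1.44%, against 3.07% of all genes), none in cr12 and 16 in cr2 (7.69%, against 5.49%), and 45 had an unadjusted p under 0.05 in the htg3 lines (16.9% of all genes had). DESeq2 called 18 of them higher and 9 lower in the htg3 lines and 18 in cr12, where it called 4.33% of all genes higher, 3.34% lower and 5.98% in cr12. Voom called 4 higher and 3 lower in the htg3 lines and 2 in cr12, against 1.81%, 1.88% and 2.41% of all genes. The cr2 calls held 8 higher genes, where 3.45% of all genes were higher, and 8 lower ones, where 2.04% were lower. On the higher side were DREB1B and DREB1C, cold-response transcription factors, and the mitotic cyclins CYCB1;1 and CYCB2;2. DREB1C had 0.121 and 0.0197 CPM in cr12 and 2.12 and 1.14 CPM in cr2, against 0.308, 0.202 and 0.126 CPM in WT. Its cr2 libraries stood above all others (2.94 ± 0.43, adjusted p = 0.0033), and it belonged to cr2 alone. DREB1B had 2.77 and 0.728 CPM in cr12 and 6.53 and 8.17 CPM in cr2, against 1.41, 0.968 and 0.445 CPM in WT (2.97 ± 0.57 in cr2, adjusted p = 0.012).

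The cyclin genes were low in all leaves. CYCB1;1 had 1.56 and 1.75 CPM in cr12 and 4.49 and 5.55 CPM in cr2, against 1.29, 0.787 and 1.68 CPM in WT (2.0 ± 0.49 in cr2, adjusted p = 0.037). CYCB2;2 had 0.413 and 0.63 CPM in cr12 and 3.44 and 3.68 CPM in cr2, against 0.616, 0.0807 and 0.668 CPM in WT (2.96 ± 0.65 in cr2, adjusted p = 0.023). All 12 genes of dividing cells had a positive difference in the htg3 lines (median 0.73), and edgeR called none in the pooled comparison. An unadjusted p under 0.05 was seen for 6 of them (16.9% of all genes had one). DESeq2 called 2 higher (4.33% of all genes) and voom none (1.81% of all genes higher and 1.88% lower). For 4 genes the htg3 libraries all lay above WT (6.77% of all genes did), among them the replication helicase subunit MCM7 (0.72 ± 0.27, adjusted p = 0.2). In the heat-treated libraries 5 of the 12 were called higher, where 3.47% of all genes were, and 1 was in a fit of the heat-treated libraries alone. The root marker LSI1 lay above WT in all untreated htg3 libraries, at 7.26 to 9.76 CPM against 4.75 to 5.98 CPM in WT (adjusted p = 0.08), the shoot meristem marker list summed to 26.5 to 29.0 CPM in the htg3 lines and 27.6 to 30.6 CPM in WT, and their part in the cyclin values was not tested.

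On the lower side in cr2, PBZ1, a pathogenesis-related protein of the PR10 family, had 199 and 152 CPM in cr12 and 62.1 and 45.1 CPM in cr2, against 151, 130 and 164 CPM in WT. Both cr2 libraries lay below all others (-1.47 ± 0.25, adjusted p = 0.007), and it belonged to cr2 alone. NAAT1, which makes precursors of iron-chelating phytosiderophores, had 205 and 85.7 CPM in cr12 and 68.0 and 48.5 CPM in cr2, against 150, 166 and 144 CPM in WT (-1.40 ± 0.33 in cr2, adjusted p = 0.031). PRR95, a pseudo-response regulator of the clock, had 265 and 309 CPM in cr12 and 233 and 207 CPM in cr2, against 293, 295 and 293 CPM in WT (-0.42 ± 0.10 in cr2, adjusted p = 0.039). PRR95 was called lower in the heat-treated htg3 lines as well (-0.39 ± 0.09, adjusted p = 0.023), though not in a fit of the heat-treated libraries alone (adjusted p = 0.064).

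Many of these cr2 calls were lost when 1 library was left out, and why was not tested. PBZ1 and DREB1B were not called without cr2 replicate 2 (adjusted p = 0.1 and 0.089), and CYCB2;2 was not called without WT replicate 1 or cr2 replicate 2. CYCB1;1, NAAT1 and PRR95 lost the call without any 1 WT or cr2 library, and DREB1C kept it with each library left out in turn and lost it by voom (adjusted p = 0.062). In a fit of the 7 untreated libraries NAAT1 and PRR95 were not called, and CYCB1;1 was not called by voom.

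Chaperone genes, the classic output of heat shock factors, and other heat-inducible genes were not called by edgeR between the htg3 lines and WT. The 5 lists held 21 small heat shock proteins, 8 HSP70, 6 HSP90, 5 HSP100 and Clp, and 6 other heat-inducible genes. An unadjusted p under 0.05 was seen for 6 small heat shock proteins, 3 HSP70 and 2 HSP90 genes (16.9% of all genes had one). DESeq2 called 4 small heat shock proteins higher and 1 lower, 2 HSP70 genes lower and 2 HSP90 genes higher. It called 4.33% of all genes higher and 3.34% lower. Voom called 1 HSP70 gene lower (1.88% of all genes). In cr12 DESeq2 called 5 small heat shock proteins, 2 HSP90 genes and 1 other heat-inducible gene higher (5.98% of all genes in either direction). The small heat shock proteins had a median difference of 0.58, at 0.72 in cr12 and 0.05 in cr2, and after heat the median was -0.35 with 3 of the 21 called lower (3.74% of all genes were). Among them LOC_Os03g16020 was high in cr12 replicate 2 alone, with 1.04, 16.7, 2.92 and 1.39 CPM in the htg3 libraries against 1.57, 1.10 and 0.881 CPM in WT. In cr2, 3 of the 46 genes on these 5 lists were called lower by edgeR, where 2.04% of all genes were. The HSP70 gene LOC_Os05g38530 had 27.7 and 46.8 CPM in cr12 and 18.7 and 10.6 CPM in cr2, against 39.0, 37.2 and 42.1 CPM in WT (-1.43 ± 0.26 in cr2, adjusted p = 0.0095), and belonged to cr2 alone. The HSP70 gene LOC_Os03g16920 had 2.54, 3.23, 2.06 and 1.92 CPM in the htg3 libraries, against 3.02, 3.53 and 3.49 CPM in WT (-0.75 ± 0.19 in cr2, adjusted p = 0.041).

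The small heat shock protein LOC_Os06g14240 had 0.968, 1.04, 0.672 and 0.452 CPM in the htg3 libraries, against 1.20, 1.36 and 0.929 CPM in WT (-1.04 ± 0.26 in cr2, adjusted p = 0.042). LOC_Os05g38530 was not called without cr2 replicate 2 (adjusted p = 0.11), LOC_Os03g16920 without any 1 WT or cr2 library, and LOC_Os06g14240 without any 1 library other than WT replicate 3. These last 2 genes were not called by voom or in a fit of the 7 untreated libraries either. LOC_Os03g16920 was called in the heat-treated lines too, at 372, 414, 399 and 555 CPM in the htg3 libraries, against 709, 776 and 995 CPM in WT (-0.93 ± 0.14, adjusted p = 0.0053). The HSP90 gene LOC_Os09g30418 had no count in cr12 replicate 2 and cr2 replicate 2, and 126 and 121 CPM in the other htg3 libraries, against 140, 122 and 122 CPM in WT. LOC_Os09g30412, a neighbouring HSP90 gene, had 279 to 303 CPM in the htg3 libraries and 311 to 340 CPM in WT, and whether these genes exchange reads was not tested.

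The remaining lists gave no call in the pooled comparison by edgeR. DESeq2 called 1 gene each of the jasmonate, cold, defence, iron and root lists (4.33% of all genes were higher and 3.34% lower). Voom called 1 gene of the cold list higher (1.81% of all genes). Among jasmonate synthesis and signalling genes the lowest unadjusted p belonged to COI1b, a jasmonate receptor, at 109 to 112 CPM in the htg3 libraries and 127 to 138 CPM in WT (-0.26 ± 0.08, adjusted p = 0.095). The 16 light-harvesting and photosystem genes had a median difference of -0.35 in cr12 and 0.31 in cr2, and 0.00 in the pooled comparison, with the highest LHCA1 value in cr2 replicate 2 and the lowest in cr12 replicate 2. The clock gene PRR1 had htg3 values of 4.90 to 6.98 CPM and WT values of 7.09 to 8.19 CPM (-0.37 ± 0.13, adjusted p = 0.15). A nitrate reductase gene, LOC_Os02g53130, had 5.28, 3.20, 9.48 and 19.7 CPM in the htg3 libraries, against 2.86, 2.26 and 0.774 CPM in WT (2.0 ± 0.69, adjusted p = 0.15). For HSFB2c, a heat-inducible repressor, the difference was -0.45 ± 0.12 (adjusted p = 0.077), the lowest p of the 25 heat shock factors. Pooled medians of the other lists were -0.43 to 0.34, apart from shoot meristem genes (-2.91, 2 genes tested, of which OSH15 is near 0). A pooled median can hide lines that move apart. Diterpenoid phytoalexin genes had a median of 0.93 in cr12 and -1.66 in cr2, and 2 of 9 were called between the lines. Phosphate starvation genes had medians of 0.77 and -0.26, with 1 of 2 called between the lines (3.8% of all genes were).

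Transcripts present in 1 genotype and at 0 in another formed a further pattern, chosen after their values were seen. A locus was on at 0.5 CPM or more in every library of 1 side. Of 55986 loci, 7 were on in both lines and without a count in WT, 10 were on in cr12 only and 10 in cr2 only. None was on in WT and without a count in both lines. There was 1 locus without a count in cr12 only and 1 in cr2 only. The strongest of cr12 alone was LOC_Os03g18779 on chromosome 3, with 37.7 and 41.2 CPM in cr12, against no count in cr2 or WT, at least 985-fold above WT (adjusted p = 7.3e-05). LOC_Os10g21970 on chromosome 10 had 13.9 and 12.8 CPM in cr12, against no count in cr2 or WT, at least 334-fold above WT (adjusted p = 0.00026). In the opposite direction LOC_Os11g17799 on chromosome 11 had no count in cr12, 2.29 and 4.69 CPM in cr2 and 2.75, 3.60 and 3.09 CPM in WT, at least 52.6-fold lower in cr12 than in WT (adjusted p = 7.3e-05).

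LOC_Os01g37350 on chromosome 1 had 0.524 and 0.354 CPM in cr12 and 3.30 and 12.9 CPM in cr2, against 4.35, 4.72 and 2.19 CPM in WT (-3.09 ± 0.61 in cr12, adjusted p = 0.031, lost without either cr12 replicate or WT replicate 1 or 2, by voom and in a fit of the 7 untreated libraries). Of the cr2-alone loci, LOC_Os04g24770 on chromosome 4 had 11.3 and 9.26 CPM in cr2, against no count in cr12 or WT, at least 257-fold above WT (adjusted p = 0.00026). LOC_Os11g11694 on chromosome 11 had 1.93 and 5.83 CPM in cr2, against no count in cr12 or WT, at least 96.9-fold above WT (adjusted p = 0.0044), a call that DESeq2 did not make (adjusted p = 0.15). A pair of loci lower in cr2 were given to that line by the rule though their cr12 means were also below WT. LOC_Os03g20740 had 3.27 and 2.73 CPM in cr12 and 0.371 and 0.183 CPM in cr2, against 6.54, 3.29 and 5.33 CPM in WT (adjusted p = 0.00028 in cr2, 0.32 in cr12 and 0.0014 pooled). LOC_Os03g30470 had 1.83 and 0.472 CPM in cr12 and 0 and 0.14 CPM in cr2, against 4.12, 3.56 and 4.24 CPM in WT (adjusted p = 0.0051 in cr2, 0.24 in cr12 and 0.0073 pooled). Both pooled calls were lost when the lines were taken as 1 group of 4 (adjusted p = 0.5 and 0.22).

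Several of these on and off patterns were seen again after heat, in libraries whose counts the choice did not use. Of the 7 loci on in both lines, 3 kept the whole pattern, with counts in every heat-treated htg3 library and none in heat-treated WT, as did 4 of 10 for cr12 and 8 of 10 for cr2. LOC_Os03g43100 had 14.8, 12.6, 11.0 and 11.2 CPM in heat-treated htg3 libraries, against 0.215, 0 and 0.0436 CPM in heat-treated WT. LOC_Os03g18779 had 38.1 and 41.5 CPM in heat-treated cr12, no count in heat-treated cr2, and 0, 0.106 and 0.0436 CPM in heat-treated WT. LOC_Os11g17799 again had no count in heat-treated cr12, against 4.99 and 4.09 CPM in cr2 and 4.56, 4.38 and 5.88 CPM in WT. LOC_Os06g50715, the locus without a count in untreated cr2 only, did not repeat. It had 0.67 and 0.691 CPM in heat-treated cr2, against 0, 0 and 1.47 CPM in heat-treated WT.

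The genes called without heat were then read in the heat-treated libraries, where the htg3 lines were again set against WT. Of the 499 same-sign genes higher without heat, 469 were also higher after heat and 274 (54.9%) were called higher there, where 3.47% of all tested genes were called higher. Of the 377 lower genes, 256 were also lower and 75 (19.9%) were called, where 3.74% of all genes were called lower. Of the 109 higher genes called in each line, all were higher after heat and 91 were called, while of the 67 lower ones 49 were lower and 18 were called. Among genes not called without heat, 57.6% had the same direction after heat. The untreated values chose these genes, so their smaller size after heat (median 0.80 after heat, against 1.15 without, for the 499 higher genes) is in part what that choice gives. When untreated and heat-treated libraries were fitted apart, an alternative chosen after seeing the data, 154 of 504 higher same-sign genes (30.6%) and 34 of 367 lower ones (9.26%) were called again, where 1.58% and 1.22% of all genes were called higher and lower after heat. The 349 genes called again in the joint fit were 187 and 211 without untreated WT replicates 1 and 2, 212 without cr12 replicate 2 and 218 without cr2 replicate 2.

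**Figure D5:**
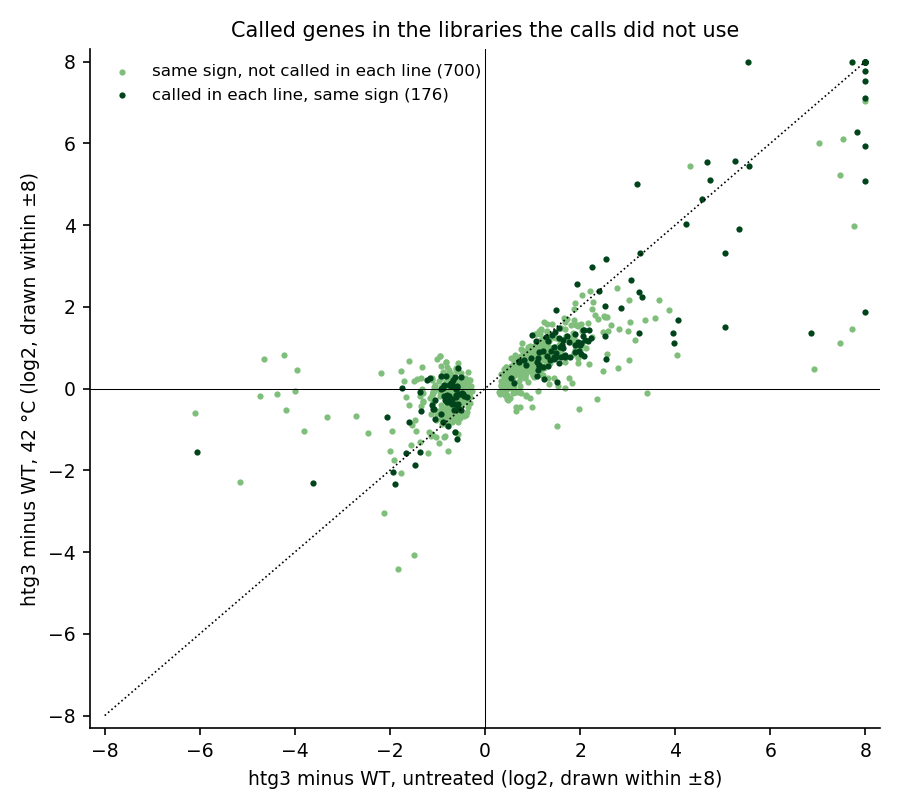
Log2 difference of the htg3 lines from WT for the 876 same-sign genes, without heat (horizontal) and at 42 °C for 0.5 h (vertical); values beyond 8 are drawn at 8 and the dotted line marks equal differences. All 109 genes higher in each line stay above 0 after heat, and 18 of the 67 lower ones lie at or above 0.

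The size of the difference itself was tested between conditions. The interaction was called for 15 of the 876 same-sign genes and 5 of the 176 called in each line. Over all genes it was called for 33 of 28823 (0.114%), of which 30 had a difference that was smaller or reversed after heat. The interaction uses the untreated difference of every gene, and the same-sign genes were also chosen by that difference. Nothing is therefore read from the direction of the interaction, in these genes or over all genes. Line-specific genes were read by the difference between the lines after heat. Of the cr12-alone genes, 51 of 54 higher and 76 of 81 lower ones kept their direction, with 35 and 58 called, where 2.18% of all genes were called higher in cr12 and 3.45% lower. Of the cr2-alone genes, 171 of 221 higher and 154 of 171 lower ones kept it, with 44 and 50 called, where the same shares run the other way (3.45% higher in cr2 and 2.18% lower).

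By their locus IDs the same-sign genes were spread over all 12 chromosomes, with 47 to 123 genes on each, 2.64% to 3.34% of those tested there. Of the 876 genes, 85 lay in 40 runs of neighbouring tested genes, and the longest run held 4. The number that random placement would give was not computed, so the runs are not read as few or many. Of the genes called in each line, 6 lay in 3 runs of 2. Chromosome 3 held 117 same-sign genes (3.34%), 16 called in each line (0.457%, against 0.611% over all chromosomes) and 24 of cr12 alone (0.685%, against 0.468% over all chromosomes, 0.727% on chromosome 7 and 0.703% on chromosome 11).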

How the data were processed

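The authors deposited estimated counts of 55986 rice loci under MSU IDs in 1 table. The submitters' processing notes name StringTie 1.3.3b, HISAT2 2.1.0, DESeq2 and fastp 0.20.1. No source used here gives a build. The values were whole already. Since low values gather at multiples of 4, 1 fragment was taken as 4 counts. The floor for a group at 0 was 3 fragments (12 counts) over the group, which covers counting error only. StringTie derives counts from coverage, so overlapping and near-identical genes can exchange reads.

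One edgeR 4.0.16 fit (R 4.3.3, TMM scaling, filterByExpr, quasi-likelihood F test) of 6 group means to all 14 libraries gave all contrasts. The htg3 value weights both lines equally. Calls are at adjusted p under 0.05 over 28823 genes. CPM was computed by edgeR on TMM-scaled library sizes. SE is the absolute log2 difference over the square root of F. The fit was tested on simulated data with known changes. Alternatives were other scalings, DESeq2 1.42.0 and voom of limma 3.58.1, other filters, leaving out libraries and, added after seeing the data, fitting untreated and heat-treated libraries apart.

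Members and gene lists were chosen with earlier results of these data known. Names come from the lists: of 167 symbols 104 matched the name table (ASM3414082v1) once, 103 on the chromosome of their ID. Named genes are listed genes called in any untreated contrast, chromosome 3 heat shock factors, JAZ genes, low-p examples of other lists, and at most 2 loci per direction and class, with a mean of 1 CPM or more and groups that do not overlap. One listed gene is not reported here.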

Additional observations from a re-analysis of the deposited data

Results flagged for a closer look

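In 14 of the 56 genes checked cr12 and cr2 differed by the test of the lines against each other (edgeR, adjusted p under 0.05). Of all tested genes 3.8% did so. Loci given by ID here and in the next paragraph, apart from the HSP70 gene, were picked from genes given to 1 line. That rule already asks for a call in this test, so their flags were fixed in advance. The values here are cr12 minus cr2 on the log2 scale unless a fold is named. Lower in cr2 were MADS14 (2.16, adjusted p = 0.031), Hd1 (1.73, adjusted p = 0.038), PBZ1 (1.71, adjusted p = 0.0098), the HSP70 gene LOC_Os05g38530 (1.34, adjusted p = 0.025), LOC_Os03g30470 (4.05, adjusted p = 0.036) and LOC_Os03g20740 (3.42, adjusted p = 0.0046). JAZ11 was higher in cr12 than in cr2 (1.93, adjusted p = 0.041). Higher in cr2 were DREB1C (-4.52, adjusted p = 0.0048) and LOC_Os01g37350 (-4.20, adjusted p = 0.01).

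Where 1 line had no count, the fold is a lower bound from the floor of 3 fragments. LOC_Os03g18779 was at least 633-fold and LOC_Os10g21970 at least 214.4-fold higher in cr12 than in cr2 (adjusted p = 0.00095 and 0.0019). LOC_Os04g24770 was at least 172-fold, LOC_Os11g11694 at least 64.9-fold and LOC_Os11g17799 at least 58.4-fold higher in cr2 than in cr12 (adjusted p = 0.0023, 0.015 and 0.00035).

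For PDIL1-1, cr12 replicate 2 stood apart from the other htg3 libraries, at 99.8 CPM against 108 to 109 CPM. It still lay above WT. Chance flags about 1 in 20 such groups, and of the 56 genes checked 1 was flagged. The group of 4 joins both lines.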

How the results depend on the processing

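No paired analysis was possible because the labels give no replicate numbers that link libraries across groups. With 1 untreated library left out, genes higher in the htg3 lines ran from 199 to 459 (502 with all), lower ones from 132 to 319 (383), same-sign genes from 325 to 766 (876), genes called in each line from 54 to 127 (176), genes of cr12 alone from 35 to 182 (135), genes of cr2 alone from 21 to 715 (392), and same-sign genes called again after heat from 187 to 288 (349). A line left with 1 library is assumed to vary like the other groups. Without replicate 2 of both lines the same counts were 133, 90, 217, 35, 24, 13 and 118, and 194 of the 217 same-sign genes were among the 876. DESeq2 gave 1248, 964, 2165, 575, 592, 1143 and 861, including 875 of the 876. Taking the lines as 1 group of 4 gave 251 higher and 128 lower genes, and its other counts could not be had. The 7 untreated libraries alone gave 84 genes of cr12 alone and no count after heat, and voom gave 227 of cr12 alone. Similar counts hid different genes in the untreated fit. Of its 871 same-sign genes 622 were among the 876, and of its 133 called in each line 95 were among the 176. For cr12 alone 59 of its 84 genes were among the 135, and for cr2 alone 211 of its 325 were among the 392. Untreated and heat-treated libraries fitted apart, chosen after seeing the data, gave 188 same-sign genes called again. DESeq2 size factors, both other filters and counts divided by 4 kept every count within 1.5 times. Of 42 calls of named genes 14 held under every alternative run, 19 were lost with at least 1 library left out, and none changed direction. Genes near 0 are limited by depth. For the counts the cause was not tested.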
